A study of Danio rerio with 16 samples.

Results

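polr2a encodes RPB1, the largest subunit of RNA polymerase II, the enzyme that transcribes protein-coding genes. It was followed here in whole zebrafish larvae after exposure to triptolide (TP), a diterpene triepoxide from a medicinal vine. The gene was taken by its symbol in the table of counts, which gave 2 transcripts of 57264 and 1 gene ID (ENSDARG00000099966) of 31812. It was selected on its higher level in TP than in control in these same libraries, so those levels are given as a description with no test. The TP group was 8 pools of 30 wild-type WIK larvae kept for 6 h in 1.6 µM TP at 5 dpf, and the control group was 8 pools of 30 larvae of the same strain and age in vehicle (DMSO). Each pool came from a dish of its own.

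RPB1 and the second largest subunit, RPB2, together form the active site of the polymerase. RPB1 also carries the C-terminal domain (CTD), a run of short repeats that kinases and phosphatases modify as the enzyme moves from the promoter into the gene. TP binds covalently to XPB, the helicase of the initiation factor TFIIH that opens promoter DNA, and in cultured human cells this is followed by loss of RPB1 protein. Of microarray studies in a TP-treated cancer cell line, the paper also states that RPB1 was a gene that went down. For the larvae it reports a lower RNA polymerase pathway. The direction of polr2a mRNA given below is the opposite of both. Neither is a like measure, as the first is from a cell line on microarrays and the second covers a set of genes. With library totals the other RNA polymerase II subunit genes tested below were called lower or were not called. The libraries measure polr2a mRNA and not RPB1 protein.

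Libraries held 26631852 to 41093922 counts in TP (median 34554464) and 19679120 to 75490916 counts in control (median 31374554). Levels are given as CPM, counts scaled to a library total of 1000000. Differences are given as the log2 ratio of TP over control with its standard error (SE). Over the 24462 genes tested this ratio had a median of -0.35 with library totals as the scale and -0.00107 with TMM factors, which centre most genes on no change. Among markers of larval tissues, TP larvae held 304 ± 11.4 CPM of fabp10a (liver), against 234 ± 26.2 CPM in control, and 7299 ± 844 CPM of mylpfa (fast muscle), against 5926 ± 469 CPM in control (SD, n = 8 each). The rhodopsin-like gene rhol was lower, at 6.17 ± 1.23 CPM in TP and 10.1 ± 1.09 CPM in control (SD, n = 8 each). The retinal and neuronal markers rho and elavl3 had log2 ratios of -0.70 and -0.72 and did not pass the test with library totals. Nor did the skin, pancreatic, cartilage and red cell markers, all of which were detected in every library. With TMM factors 5 of the 9 tested markers were called higher and 1 lower, where 15.9% of all genes were higher and 16.5% lower. The skin, pancreatic and cartilage markers were among the 5, with log2 ratios of 0.33, 0.40 and 0.35. Whole larvae were sequenced, so a change in the number of cells that express a gene and a change in its RNA per cell cannot be told apart. CPM are shares of a library, so more RNA of a gene and less of other RNA cannot be told apart either. Words such as higher, lower, rose and fell refer to these shares.

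In TP larvae polr2a counts ran from 4040 to 7390 with a median of 5457, against 586 to 2620 with a median of 922 in control. As CPM, the TP pools ran from 139 to 182 with a median of 156, against 26.9 to 47.9 with a median of 30.5 in control pools. All 8 TP pools lay above all 8 control pools, and the lowest TP pool was 2.90-fold above the highest control pool. The mean was 159 ± 16.1 CPM in TP and 32.3 ± 6.93 CPM in control (SD, n = 8 each), a 4.94-fold difference and a log2 ratio of 2.30 (SE 0.11). Over all genes tested, every TP library lay above every control library for 465 genes (1.90%), and edgeR called 1122 genes (4.59%) higher in TP at an adjusted p of 0.01 or less. The spread of polr2a between pools, relative to its mean, was 10.1% in TP and 21.5% in control.

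**Figure D1:**
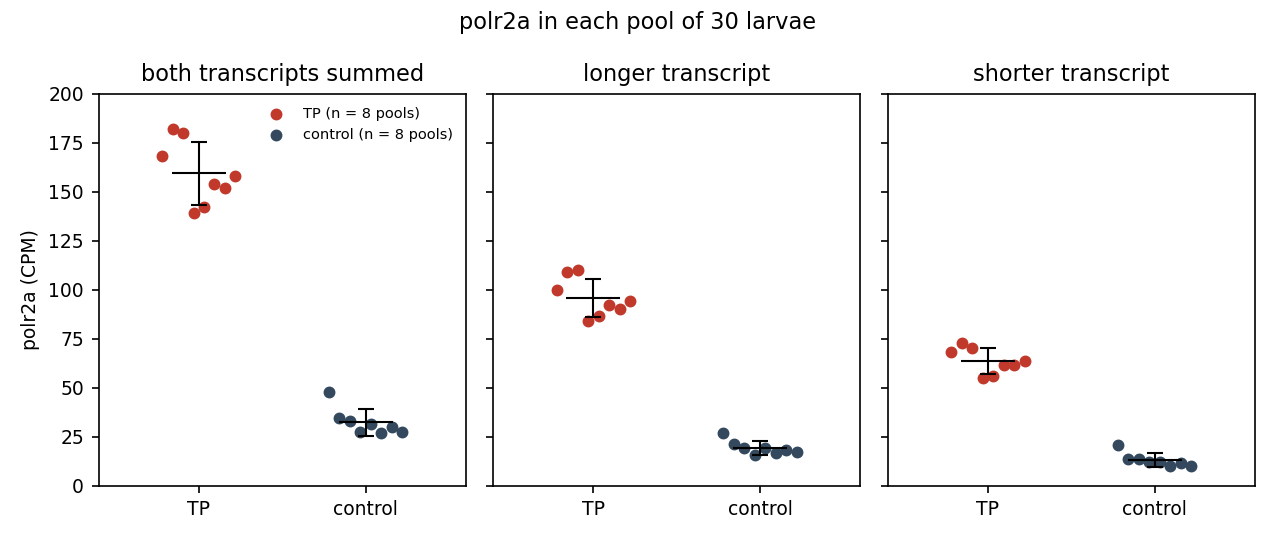
polr2a in CPM in each pool of 30 larvae (points), for both transcripts summed and for each transcript, with the mean and SD of 8 TP and 8 control pools (black bars). In every panel the TP pools lie above the control pools, from 139 CPM upward against at most 47.9 CPM for the sum.

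Much of the control spread came from 1 pool. Control library 1 stood at 47.9 CPM, while the other 7 control libraries averaged 30.1 ± 3.05 CPM (SD) and reached at most 34.7 CPM. Without it polr2a was 5.30-fold higher in TP, a log2 ratio of 2.41. The same library was also the highest control library for polr2b (39.1 CPM, against a mean of 29.4 CPM in the others), polr2d and polr2h. Among tissue markers it was highest for elavl3, an RNA-binding protein gene of neurons (99.98 CPM against 32.0 CPM). The same held for rho, the rod opsin gene (406 CPM against 150 CPM), and the cartilage marker col2a1a (852.7 CPM against 543.5 CPM). Control library 1 was the lowest for polr2gl, for fabp10a (200.2 CPM against 239.3 CPM) and for the pancreatic marker try (1281.4 CPM against 1638.1 CPM). For the other tested subunits and markers, among them rhol, it was neither highest nor lowest. The part of this in the polr2a values was not tested.

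The gene si:dkey-153m14.1 took an unequal share of the counts among libraries. It took 0.55% to 0.92% in control libraries 1 to 4 and 3.38% to 6.42% in control libraries 5 to 8. Among TP libraries only 3 and 4 were under 2%, at 0.90% and 1.41%. In the 2 TP and 4 control libraries with a share under 2%, polr2a averaged 159 CPM in TP and 35.8 CPM in control, a fold of 4.46. This set includes control library 1, at 47.9 CPM, which raises its control mean. In the 6 TP and 4 control libraries at or over 2%, it averaged 159 CPM in TP and 28.8 CPM in control, a fold of 5.53. The TP and control pools did not overlap in either set, which follows from their lack of overlap over all libraries and adds nothing to it.

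polr2a was also higher in TP when set against single genes in place of library totals. Against mrps18b, a mitochondrial ribosomal protein gene used as the qPCR reference of the study, the ratio of polr2a counts was 12.2 ± 0.88 in TP and 2.17 ± 0.56 in control (SD, n = 8 each), a fold of 5.62. mrps18b itself had a log2 ratio of -0.21 and did not pass the test (edgeR adjusted p = 0.028). Against eef1a1l1, a translation elongation factor gene, the fold was 4.15, and against the ribosomal protein gene rpl13a it was 4.03. Both of these genes were themselves called higher in TP, with log2 ratios of 0.25 for each. Against actb1, a β-actin gene with a log2 ratio of -1.05, it was 10.2. With TMM factors the log2 ratio of polr2a was 2.66.

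Both annotated transcripts of polr2a changed alike. On GRCz10, ENSDART00000172066 spans chromosome 12 from 22438848 to 22452078 with a length of 8182 bases, and ENSDART00000172296 spans 22440121 to 22450876 with a length of 6575 bases. The span of the shorter transcript thus starts 1273 bases after and ends 1202 bases before that of the longer. The longer transcript was at 95.7 ± 9.75 CPM in TP and 19.2 ± 3.61 CPM in control (SD, n = 8 each), a log2 ratio of 2.31 (SE 0.10). The shorter was at 63.6 ± 6.43 CPM in TP and 13.1 ± 3.43 CPM in control (SD, n = 8 each), a log2 ratio of 2.28 (SE 0.12). For both, each TP pool lay above each control pool.

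The longer transcript took 60.1% ± 0.60 of the polr2a counts in TP and 59.8% ± 2.48 in control (SD, n = 8 each). The lowest share was 56.4% in control library 4, where the 95% Wilson interval on 420 read pairs ran from 51.6% to 61.1%, and the highest was 62.6% in control library 8, from 57.9% to 67.1% on 423 pairs. The TP shares ran from 59.4% to 61.0%. These intervals cover counting error only. If the shorter transcript lay wholly within the longer, with reads spread evenly and shared reads placed equally on both, the longer would take 59.8%. The 2 transcripts were therefore not taken as separate measurements of the gene. The counts by which the longer exceeded the shorter, which on that reading fall on its 1607 further bases, came to 19.99 ± 2.41 CPM per kb in TP and 3.85 ± 0.77 CPM per kb in control (SD, n = 8 each), a fold of 5.20.

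Few genes were higher in TP by as much as polr2a. Before any filter on level, 146 of the 24462 genes tested had a higher log2 ratio. Among the 21633 genes with a control mean of at least 1 CPM, only myo1ha, an unconventional myosin gene named here after its values were seen, was above polr2a. It was at 7.598 ± 1.72 CPM in TP and 1.47 ± 0.27 CPM in control (SD, n = 8 each), a log2 ratio of 2.37. Among the 14767 genes with a control mean of at least 5 CPM, none was above polr2a. By level, 513 tested genes stood above polr2a in TP and 3772 in control, and by CPM gained 100 genes stood above its 127 CPM.

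The other subunits of RNA polymerase II did not move with polr2a. The table held 12 further genes for them, of which 11 had enough counts to test. With library totals edgeR called 0 higher, where 4.59% of all genes were, and 5 lower, where 41.9% of all genes were. The number of higher members was also 0 at an unadjusted p under 0.05 and with limma, which called 4.56% of all genes higher and 40.7% lower. It was 1 (polr2b) with TMM factors, which called 15.9% of all genes higher and 16.5% lower, and 1 with DESeq2, which called 17.9% higher and 17.8% lower. Their log2 ratios ran from -0.66 to -0.08 with a median of -0.40, against -0.35 for all genes. With TMM factors 0 of them were lower and their median was -0.04. The groups overlapped for each of the 11. Over all genes, every TP library lay below every control library for 20.9% and above for 1.90%. A count of 0 among so few genes says little about them.

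polr2b, on chromosome 14 from 51664725 to 51693123, encodes RPB2. It ran from 24.0 to 36.3 CPM in TP with a median of 27.9, against 25.9 to 39.1 CPM in control with a median of 29.7. The ranges of the 2 groups overlapped over most of their width. Its log2 ratio was -0.08 (SE 0.10, edgeR adjusted p = 0.52) with library totals, and it was called higher, at 0.27, with TMM factors. In the same libraries there were 5.57 ± 0.77 polr2a counts for each polr2b count in TP and 1.05 ± 0.10 in control (SD, n = 8 each).

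The members called lower were polr2d, polr2h, polr2eb, polr2l and polr2gl. polr2d encodes RPB4, which with RPB7 forms the stalk of the enzyme. It was at 5.64 ± 0.52 CPM in TP and 8.90 ± 1.61 CPM in control (SD, n = 8 each), with a log2 ratio of -0.66 (SE 0.11, edgeR adjusted p = 3.5e-05). polr2gl, named after the RPB7 gene, had a log2 ratio of -0.40 (edgeR adjusted p = 0.0022). polr2eb, polr2h and polr2l encode RPB5, RPB8 and RPB10, which are among the small subunits that the 3 nuclear polymerases share, but not all of them. These genes had log2 ratios of -0.48, -0.62 and -0.45 (edgeR adjusted p = 4.8e-04, 0.0071 and 0.0015). None of these 5 calls held with TMM factors. polr2c, polr2i and polr2k had log2 ratios of -0.38, -0.32 and -0.40 and polr2f and polr2j of -0.17 and -0.10, and did not pass the test.

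**Figure D2:**
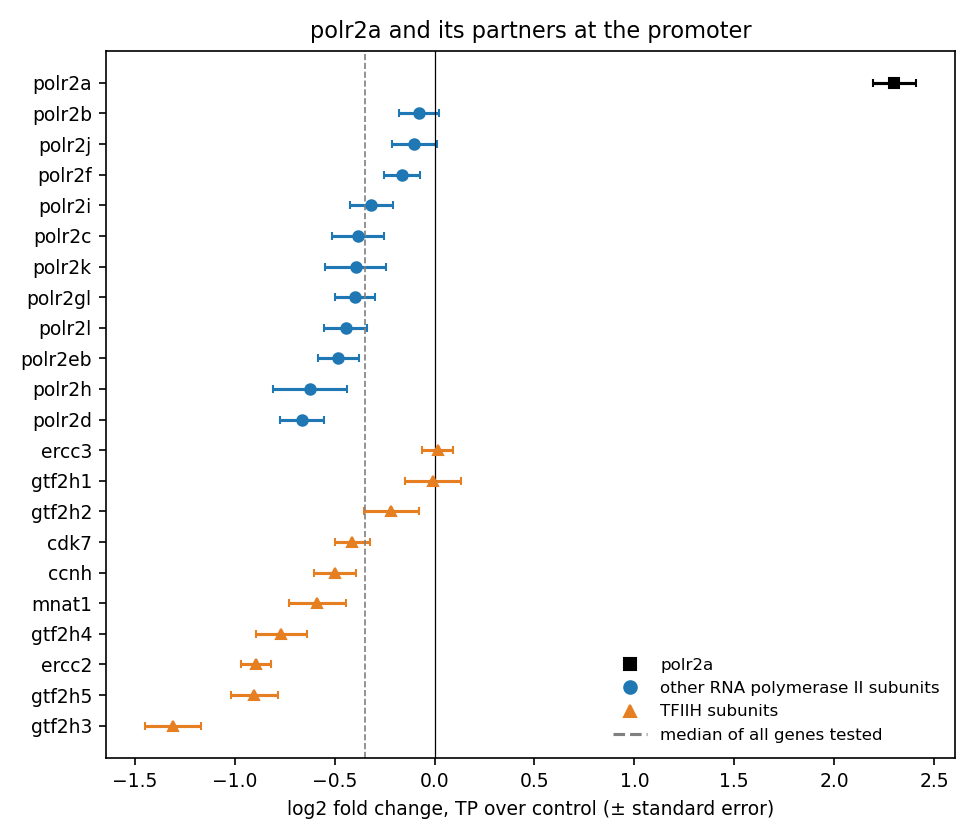
log2 ratio of TP over control with its SE for polr2a (square), 11 other RNA polymerase II subunits (circles) and 10 TFIIH subunits (triangles), from edgeR with library totals. polr2a stands at 2.30, the other subunits between -0.66 and -0.08 and the TFIIH subunits between -1.31 and 0.02, and the dashed line is the median of all genes, -0.35.

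Levels of different genes were compared per length, as CPM per kb of transcript summed over the transcripts of a gene. In control polr2a was at 4.34 ± 0.95 CPM per kb, below 10 of the other 11 subunits, and polr2h alone was lower, at 3.76 ± 0.83. These neighbours differed by less than their spread. In TP polr2a was at 21.4 ± 2.15 CPM per kb and first of the 12, ahead of polr2eb at 14.9 ± 2.09 and polr2f at 14.5 ± 2.18 (SD, n = 8 each). Per kb, polr2a stood to polr2b as 1.99 ± 0.34 to 1 in TP, from 1.49 to 2.58, and as 0.37 ± 0.03 to 1 in control, from 0.33 to 0.42. polr2a was thus above polr2b in every TP pool and below it in every control pool.

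**Figure D3:**
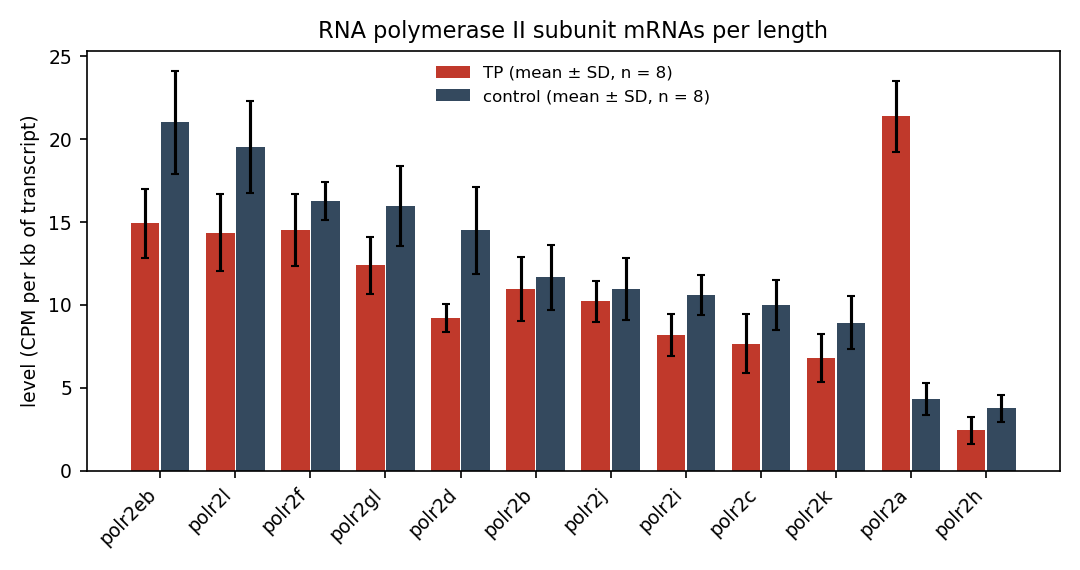
Level per length (CPM per kb of transcript) of 12 RNA polymerase II subunit genes in TP and control, as mean and SD of 8 pools each, ordered by the control level. polr2a is next to last in control at 4.34 and highest in TP at 21.4, while each other subunit has a TP mean below its control mean.

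The catalytic subunits of the other RNA polymerases had the opposite direction. polr1a, the largest subunit of RNA polymerase I, which makes ribosomal RNA, was at 22.9 ± 2.19 CPM in TP and 37.0 ± 3.05 CPM in control (SD, n = 8 each), with a log2 ratio of -0.70 (SE 0.07, edgeR adjusted p = 1.3e-07). polr3a, its counterpart in RNA polymerase III, which makes transfer RNA, had a log2 ratio of -0.73 (edgeR adjusted p = 1.3e-05), and POLRMT, the mitochondrial RNA polymerase, one of -0.75 (edgeR adjusted p = 5.7e-06). All 3 were called lower with library totals, where 41.9% of all genes were and the median was -0.35. They were also called lower with TMM factors, where 16.5% of all genes were. For each of them every TP pool lay below every control pool, as for 20.9% of all genes.

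Of the 10 subunits of TFIIH, 0 rose and 7 fell, where 4.59% of all genes were higher and 41.9% lower. Their median was -0.54, against -0.35 for all genes. With TMM factors 1 rose and 4 fell, where 15.9% of all genes were higher and 16.5% lower. At an unadjusted p under 0.05 from edgeR 0 were higher. DESeq2 called 1 higher, where it called 17.9% of all genes higher, and limma 0, where it called 4.56%. ercc3, on chromosome 6 from 9359875 to 9394542, encodes XPB, the target of TP. It was at 16.1 ± 1.41 CPM in TP and 16.0 ± 1.62 CPM in control (SD, n = 8 each), with a log2 ratio of 0.02 (SE 0.08, edgeR adjusted p = 0.88), and was the member called higher with TMM factors, at 0.37. The members with the largest change were gtf2h3, gtf2h5 and ercc2, which encodes the XPD helicase, with log2 ratios of -1.31, -0.90 and -0.90 (edgeR adjusted p = 1.6e-07, 2.5e-06 and 7.8e-09).

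Of 23 genes for kinases and phosphatases of the CTD and their partners, 1 rose and 13 fell, where 4.59% of all genes were higher and 41.9% lower, with a median of -0.43, against -0.35 for all genes. With TMM factors 3 rose and 4 fell, where 15.9% of all genes were higher and 16.5% lower. The member that rose was ssu72, a CTD phosphatase gene, at 20.8 ± 1.58 CPM in TP and 15.1 ± 1.52 CPM in control (SD, n = 8 each), with a log2 ratio of 0.47 (SE 0.08, edgeR adjusted p = 2.9e-05). ctdsp2, of the small CTD phosphatases, was at 71.6 ± 3.37 CPM in TP and 219 ± 14.7 CPM in control (SD, n = 8 each), with a log2 ratio of -1.62 (SE 0.06, edgeR adjusted p = 1.6e-13). rprd1b, which binds the CTD, and ctdp1, the CTD phosphatase FCP1, had log2 ratios of -0.83 and -0.81 (edgeR adjusted p = 1.9e-08 and 3.9e-05).

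Of 32 genes listed for the assembly of RPB1 into the enzyme or for its ubiquitination and turnover, 1 rose and 16 fell, with a median of -0.33. These counts and this median lay close to those of all genes, of which 4.59% were higher and 41.9% lower with a median of -0.35. The list also holds polr2m and POLR2M, named after a protein bound to the polymerase, and polr2m was among those that fell. With TMM factors 5 rose and 7 fell, where 15.9% of all genes were higher and 16.5% lower. The member that rose was a gene listed as tceb2 (ENSDARG00000097740), next to a second gene of the same symbol (ENSDARG00000037980) that did not pass the test, and reads may be shared between them. It was at 8.65 ± 1.35 CPM in TP and 4.32 ± 0.77 CPM in control (SD, n = 8 each, edgeR adjusted p = 8.5e-07), and the second was at 68.9 ± 3.69 CPM in TP and 64.6 ± 6.56 CPM in control. Another listing, TCEB2 (1 to many), overlaps both, and each of these listings was counted as a member. tceb2 is the older symbol for elongin B, part of a ubiquitin ligase for RPB1. ercc8 and uvssa, which act when RNA polymerase II stalls at DNA damage, had log2 ratios of -0.89 and -0.85 (edgeR adjusted p = 7.8e-07 and 4.3e-07).

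Within 100 kb on either side of polr2a the table places 10 genes, none of which overlaps polr2a. Of the 9 with enough counts to test, edgeR called 0 higher and 6 lower with library totals, where 4.59% of all genes were higher and 41.9% lower, so that a count of 0 among so few genes says little about them. At an unadjusted p under 0.05 from edgeR 0 were higher and 6 lower. Limma called 0 higher and 6 lower, where it called 4.56% of all genes higher and 40.7% lower. With TMM factors 0 were higher and 3 lower, where 15.9% of all genes were higher and 16.5% lower. DESeq2 called 1 higher and 4 lower, where it called 17.9% of all genes higher and 17.8% lower. The higher gene was shbg, named after the sex hormone-binding globulin gene, at 0.30, where it was at -0.05 with library totals. capgb, named after an actin-capping protein gene and the nearest at 3107 bases beyond polr2a (22455185 to 22483092), was at 18.7 ± 0.98 CPM in TP and 28.2 ± 2.68 CPM in control (SD, n = 8 each), with a log2 ratio of -0.59 (SE 0.07, edgeR adjusted p = 5.4e-07). zbtb4, a zinc finger gene on the other side (22407531 to 22419724), had a log2 ratio of -1.20 (edgeR adjusted p = 6.4e-10), and zcchc4, an RNA methyltransferase gene, one of -1.38 (edgeR adjusted p = 4.5e-08). neurl4, mfsd8 and si:dkey-219e21.4 were the others called lower, at -0.63, -0.42 and -1.06, and the last of these lies within the span of zcchc4, so that their counts may not be separate. The highest neighbour was cdca9, at 0.25 (SE 0.32, edgeR adjusted p = 0.52).

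**Figure D4:**
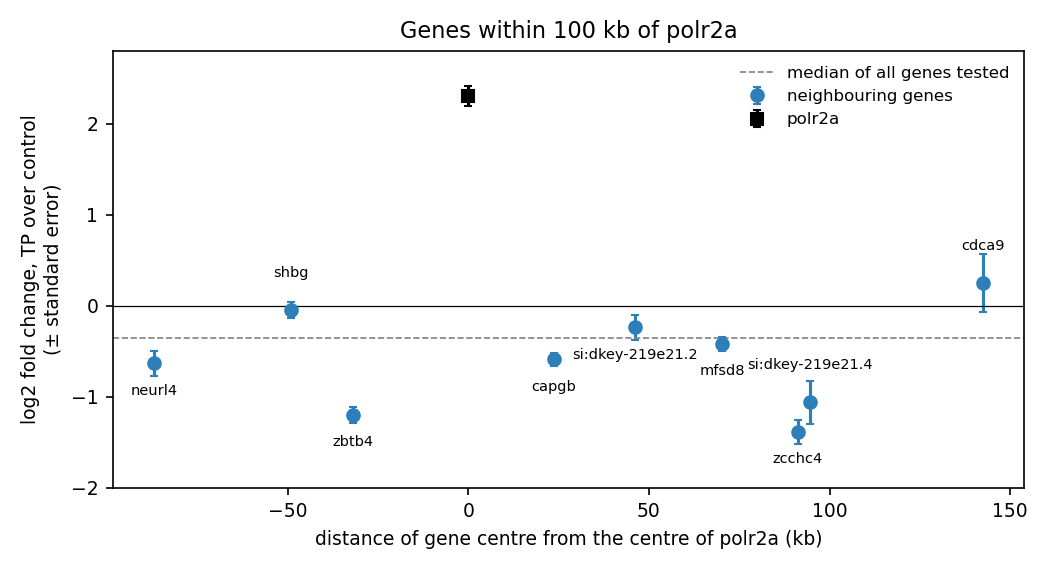
log2 ratio of TP over control with its SE for polr2a (square) and the 9 tested genes within 100 kb of it (circles), by the distance in kb between the centre of each gene and that of polr2a. polr2a stands alone at 2.30 and the neighbours lie between -1.38 and 0.25.

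The genes nearest to polr2a in profile were sought among 14766 genes with a control mean of at least 5 CPM. The measure was the root mean square difference from polr2a over the 16 libraries, in log2(CPM + 0.5) after the control mean of each gene was subtracted. On this scale polr2a itself was on average 2.30 above its control mean in TP, so the measure depends strongly on the size of a rise. These genes were picked for their pattern and are given with no test. The nearest was ints6, a subunit of Integrator, the complex that cleaves RNA from polymerases paused near promoters. Its difference was 0.57, against 1.06 for the 10th gene and a median of 1.88 over all genes compared. ints6 was at 41.7 ± 3.03 CPM in TP and 13.9 ± 2.02 CPM in control (SD, n = 8 each), a log2 ratio of 1.58. Next came znf143b, named after a transcription factor of small nuclear RNA and mRNA promoters, at 52.5 ± 3.46 CPM in TP and 21.1 ± 1.56 CPM in control, and zgc:55733, at 78.2 ± 5.39 CPM in TP and 33.4 ± 2.79 CPM in control.

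gtf2a1, a subunit of the initiation factor TFIIA, followed, at 38.6 ± 3.27 CPM in TP and 17.1 ± 1.68 CPM in control (SD, n = 8 each), a log2 ratio of 1.17. ddx26b, named after a paralogue of INTS6 in human, and hexim1, which holds the CTD kinase CDK9 inactive, closed the 10, with log2 ratios of 0.86 and 0.80. hexim1 ran from 15.0 to 20.4 CPM in TP, against 7.38 to 18.3 CPM in control, where the highest value was that of library 1 as for polr2a. The other 4 were hfm1, a meiotic helicase gene, vcana, a versican gene of the extracellular matrix, si:dkey-13m3.1 and pkd1b, named after a polycystin gene, with log2 ratios from 0.91 to 1.11. Per kb, summed over its 3 transcripts, hfm1 differed little, at 11.3 ± 3.20 CPM in TP and 10.3 ± 3.42 CPM in control (SD, n = 8 each). All 10 had a lower log2 ratio than polr2a. This was fixed by the choice, as no gene with a control mean of at least 5 CPM was above polr2a. The groups overlapped for pkd1b and hexim1. Besides hexim1, library 1 was the highest control library for gtf2a1, ddx26b, vcana and pkd1b, but not for the rest of the 10.

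**Figure D5:**
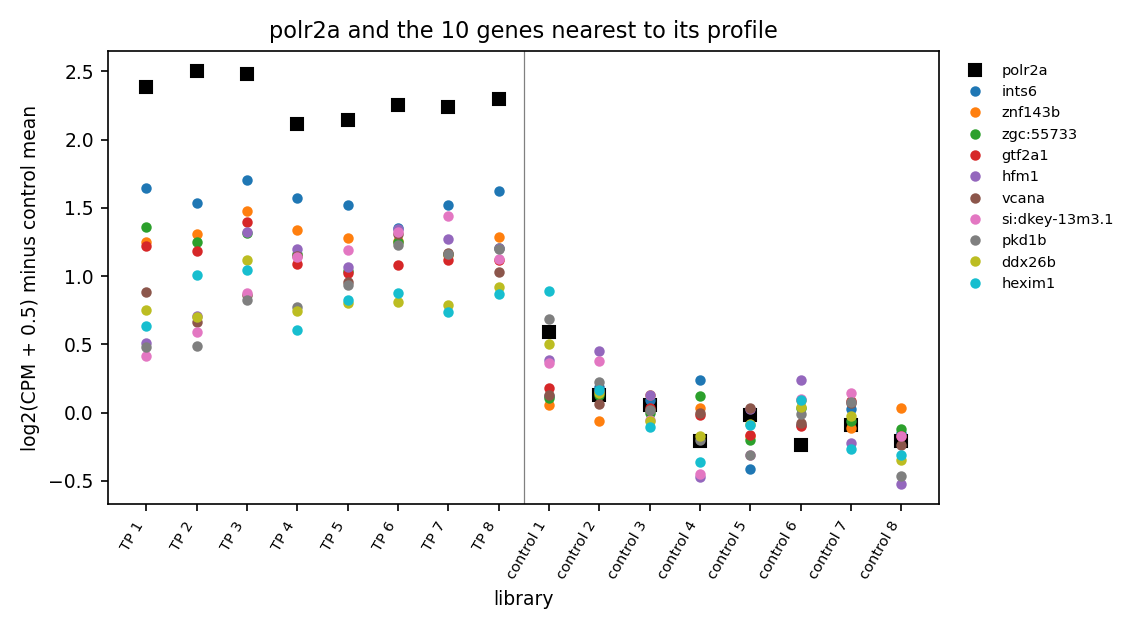
log2(CPM + 0.5) minus the control mean in each of the 8 TP and 8 control libraries for polr2a (black squares) and the 10 genes nearest to its profile (circles). polr2a lies above each of the 10 in every TP library, and ints6 comes next by the mean.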

How the data were processed

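The authors aligned paired reads with Bowtie2 to Ensembl release 84 transcripts, kept concordant pairs and deposited raw counts per transcript, not normalized, with lengths and GRCz10 positions. The submitters' processing notes also name FastQC, SAMtools and limma, without versions. The deposited counts hold no odd value, so both mates of a pair appear to be counted. Whether counting was by strand is not stated.

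Counts were summed per gene ID. The 209 transcripts without one (0.220% to 0.282% of counts) stayed in the library totals. TP was compared with control by the quasi-likelihood test of edgeR 4.0.16 (R 4.3.3) across all genes, with library totals as the only scale, edgeR's filter on expression and Benjamini-Hochberg adjustment. The SE of a log2 ratio is its size over √F. Lists were matched on the deposited and the current symbol (82.1% of gene IDs had one). On simulated counts this test called 47 of 50 genes made 2-fold higher, 50 of 50 made 4-fold higher, 49 of 50 set to 0.5 and 50 of 50 set to 0.25 of their level, and 2 unchanged genes of 24462 simulated. The simulation changed only genes with a mean of at least 50 counts, gave every gene the same dispersion and moved as many genes up as down. It held no shift of most genes, such as the median of -0.35 here, so it cannot test the use of library totals as the scale. Replicates differed by more than sampling noise (chi-square per degree of freedom of at least 4.35 among TP and 4.07 among control pairs).

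The gene, lists and tests were chosen with earlier results of these data known. Named genes are polr2a, every RNA polymerase II subunit, ercc3, polr1a, polr3a, polrmt, up to 3 called members with the largest change in each other list, genes within 100 kb, the 10 nearest in profile, and reference genes. ssu72 and the 2 genes listed as tceb2 were also named as the members that rose or share a symbol. Alternatives were TMM factors, DESeq2 1.42.0, limma 3.58.1 (counts brought to the smallest library, plus 1, in log2), totals without ribosomal and mitochondrial transcripts, halved counts, no filter, at least 10 counts in 8 libraries, an adjusted p of 0.05, the most abundant transcript, a replicate block and leaving out each library.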

Additional observations from a re-analysis of the deposited data

Results flagged for a closer look

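In 50 sets of 8 values, each polr2a measure and each tested subunit of RNA polymerase II and TFIIH in 1 group, 3 held a library far from the rest by Dixon's criterion, which chance gives in about 1 in 20. A count of 3 in 50 is close to that rate. The 3 were control library 1 for polr2a (47.9 CPM) and for its shorter transcript (20.9 CPM), and the highest control value of gtf2h4, a TFIIH subunit gene, at 7.89 CPM. The polr2a flags share counts and are not separate.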

How the results depend on the processing

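The log2 ratio of polr2a, 2.30, was 2.66 with TMM factors and 2.66 with DESeq2, and as a ratio to another gene 2.52 against mrps18b, 2.07 against eef1a1l1, 3.37 against actb1 and 2.06 against rpl13a. Leaving out each library gave 2.27 to 2.41. Its shift between groups in the share of the longer transcript, 0.25 percentage points, ran from -0.23 to 0.66 on leaving out each library. With TMM factors and DESeq2, 3895 and 4379 of all genes were higher and 4038 and 4359 lower. Under both, 1 other RNA polymerase II subunit was higher and 0 lower, 1 TFIIH subunit was higher and 4 lower, 3 CTD kinase and phosphatase genes were higher and 4 lower, and 5 assembly and turnover genes were higher and 7 lower. In the main setting 5 subunits and 10258 of all genes were lower. With totals without ribosomal and mitochondrial transcripts 2 subunits and 8017 of all genes were lower. At an adjusted p of 0.05, 8 subunits and 12889 of all genes were. On leaving out each library 4 to 7 subunits and 9126 to 10572 of all genes were lower. The direction of 4 subunits that had not passed the test turned. With TMM factors and DESeq2 polr2b was at 0.27 and 0.28, polr2f at 0.17 and 0.18, polr2i at 0.023 and 0.032 and polr2j at 0.24 and 0.24. With totals without ribosomal and mitochondrial transcripts polr2b was at 0.027 and polr2j at 0.00058. The cause of these shifts was not tested. Library names end in the digits 1 to 8 in both groups, but the correlation of deviations between libraries of the same digit ran from -0.17 to 0.28, and 3 of 8 TP libraries correlated best with their own digit. With a replicate block on that digit the log2 ratio of polr2a was 2.32, 1100 genes were higher and 9602 lower, and 7 other RNA polymerase II subunits were lower, polr2c (-0.40) and polr2i (-0.32) being added to the 5.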
